A study of Mus musculus with 12 samples.

Results

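The receptors of the common gamma-chain cytokine family were followed through early T cell development in the mouse thymus. The family was taken as 8 genes by name: Il2ra, Il2rb, Il2rg, Il4ra, Il7r, Il9r, Il15ra and Il21r. Of these, 7 had a probe set annotated with that single symbol, with 13 of the 34945 probe sets and 7 of the 18193 genes annotated in that way. Il2rg, which encodes the shared chain itself, was not analysed here. After a filter on dim signals, 5 of the 7 genes (10 of the 13 probe sets) entered the tests with 11166 genes in all, while Il2rb and Il9r were too dim to enter.

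The mice were C57BL/6 females 5 to 6 weeks old, for which the labels name no treatment and no genetic change, and 4 independent sorts used 4 mice each, 16 in all. Each sort gave 1 sample of 3 double negative (DN) stages, which carry neither CD4 nor CD8: DN2 (CD44+CD25+), DN3 (CD44-CD25+) and DN4 (CD44-CD25-). CD4+ and CD8+ cells were first depleted on magnetic columns. The sort then kept cells without CD3, NK1.1, gamma-delta T cell receptor, CD4 or CD8 on their surface. RNA of each sample went onto 1 Affymetrix Mouse Genome 430 2.0 array, so that 12 arrays formed 3 groups of 4. The receptors were compared across the step into DN3, the step into DN4 and both steps together.

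These receptors share the common gamma chain and pair it with a private chain that sets the ligand: Il7r for IL-7, Il4ra for IL-4, Il21r for IL-21, Il9r for IL-9, and Il2ra or Il15ra with Il2rb for IL-2 and IL-15. Ligand binding activates the kinases JAK1, on the private chain, and JAK3, on the common chain, which phosphorylate STAT proteins. In the thymus IL-7 sustains the survival and proliferation of early T cell precursors, and loss of either its receptor or the common chain leaves few T cells.

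Levels are given as log2(signal + 5.69) after quantile normalization; this offset makes fold changes of dim genes too small. A signal above log2 4.71 on at least 4 arrays was required for a test. Differences are given ± SE from limma, a linear model over all 12 arrays, with p-values adjusted over all genes tested and called below 0.05. Levels of different probe sets are not comparable with each other, so each level is compared only across the stages of its own probe set. Where changes of different genes or probe sets are set against each other, the offset can shrink the change of the dimmer more.

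From DN2 to DN4 the level of Il7r and Il4ra fell at each step, Il21r was highest in DN3, and Il2ra, whose protein defined the gates, dropped mainly between DN3 and DN4. Il15ra, Il2rb and Il9r stayed near or below the filter level in every stage. These patterns are taken up gene by gene, beginning with the sort marker as a check of the labels.

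**Figure D1:**
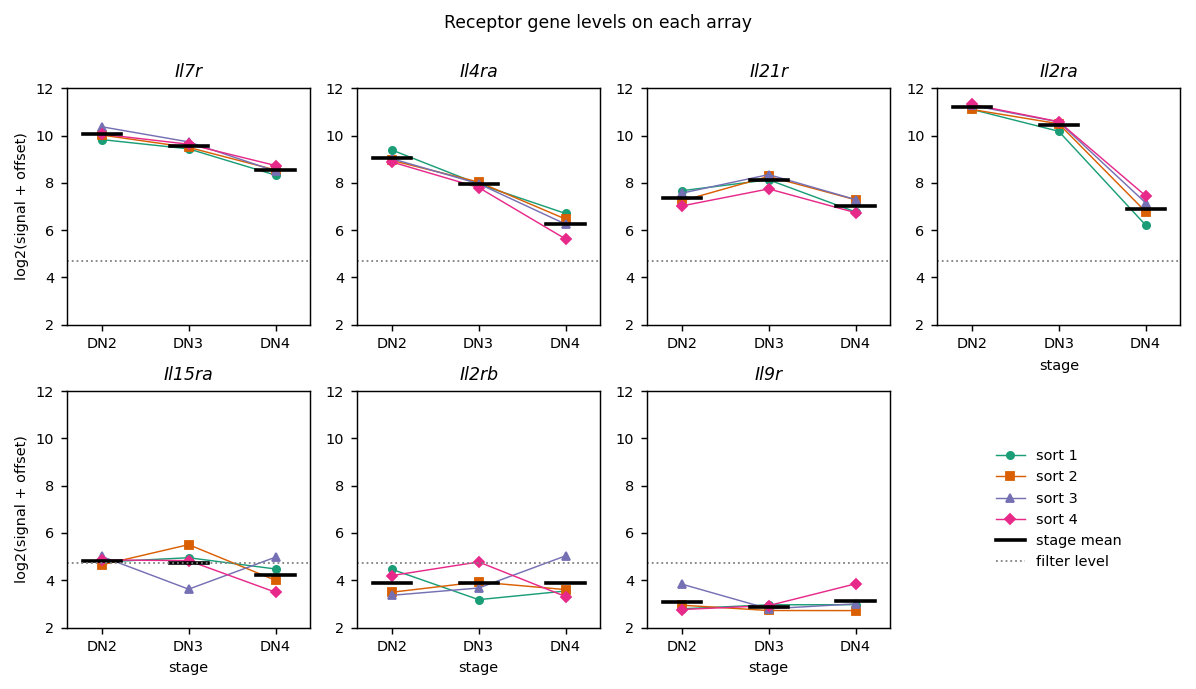
Log2(signal + offset) of the brightest probe set of each receptor gene (vertical axis) in DN2, DN3 and DN4 (horizontal axis), with a coloured line for each of the 4 sorts, a black bar for the stage mean and a dotted line at the filter level of 4.71. Il7r and Il4ra step down both times, Il21r is highest in DN3 and Il2ra drops to 6.21 to 7.45 in DN4, while Il15ra, Il2rb and Il9r lie around or below the dotted line.

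Il2ra encodes CD25, the alpha chain that raises the affinity of the IL-2 receptor and the surface marker that separated DN3 from DN4. Its brighter probe set, 1420692_at, lay at 11.1, 11.1, 11.3 and 11.3 in DN2 for sorts 1 to 4, at 10.2, 10.5, 10.6 and 10.6 in DN3, and at 6.21, 6.78, 7.15 and 7.45 in DN4. Every DN4 array lay below every DN2 and DN3 array. Because DN3 and DN4 were parted by CD25 protein, the fall of 3.56 ± 0.22 from DN3 to DN4 (11.8-fold) is a check of the sort and no finding. Both DN2 and DN3 were gated as CD25+, yet the DN3 arrays were all below the DN2 arrays, by 0.74 ± 0.22 (1.67-fold, adjusted p = 0.0489). That call ended in 10 of the 12 fits that left out 1 array, and was kept only without DN4 replicate 1 or DN4 replicate 4. Over the 12 fits the adjusted p ran from 0.0103 to 0.130. The stages share 1 estimate of the spread, and DN4 spread most (SD 0.53, against 0.11 in DN2 and 0.19 in DN3). In limma with the sort as a block the adjusted p was 0.0114, and over the 8 DN2 and DN3 arrays alone 0.00798. The difference did not appear in the second probe set of the gene, 1420691_at. That probe set lay at 8.06 to 8.48 in DN2 and 8.04 to 8.46 in DN3 and differed by -0.04 ± 0.15 (adjusted p = 0.914 over all probe sets). The 2 probe sets differed from each other by 0.70 in this step, higher for 1420691_at in 4 of 4 sorts. An exact two-sided permutation over 70 splits, which did not keep the sorts paired, gave p = 0.0286. That is the smallest p that 4 against 4 arrays allow, and it became 0.0572 after adjustment over 12 such tests. In DN4 the second probe set lay at 4.94 to 5.50, a fall of 3.0 ± 0.15 from DN3.

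The 250 bases before the Il2ra start site follow, so that the upstream sequences of Il2ra, Il7r and Il4ra can be set side by side. These genes were called lower at both steps on their brightest probe sets. For Il2ra the first call was not seen on the second probe set, and the second step lay across the gate on CD25 protein. The sequence is from RefSeq on build GRCm38.p6, chr2:11642542-11642791, plus strand. Capitals mark ACCGCA, the reverse complement of the RUNX motif TGCGGT, at 71 to 66 bases before the start.
Il2ra: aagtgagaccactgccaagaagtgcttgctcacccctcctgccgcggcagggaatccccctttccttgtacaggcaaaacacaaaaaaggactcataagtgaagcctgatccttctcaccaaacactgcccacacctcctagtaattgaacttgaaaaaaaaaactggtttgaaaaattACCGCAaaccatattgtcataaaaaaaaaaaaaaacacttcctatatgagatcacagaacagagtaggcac
Both strands were searched for TGTGGT and TGCGGT (RUNX), TTCNNNGAA (STAT), TGTTTAC (FOXO), CGGAAG (ETS) and TGGGAA (RBPJ), for the GATA factor motif AGATAA and for CTTTGA (TCF/LEF). Among 32851 RefSeq windows of 250 bases before a start, 5.1% held TGCGGT, 14.0% TGTGGT, 7.02% TTCNNNGAA and 3.17% TGTTTAC. The other motifs were found in 13.6% (CGGAAG), 21.6% (TGGGAA), 9.99% (AGATAA) and 13.8% (CTTTGA). A match describes the letters only.

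Il7r encodes the alpha chain of the IL-7 receptor, which also serves the thymic stromal cytokine TSLP. Its brighter probe set, 1448575_at, lay at 9.83, 10.02, 10.37 and 10.06 in DN2 for sorts 1 to 4, at 9.44, 9.50, 9.73 and 9.64 in DN3, and at 8.33, 8.55, 8.50 and 8.73 in DN4. The 3 stages did not overlap, and each sort stepped down both times. Il7r fell by 0.49 ± 0.14 from DN2 to DN3 (1.41-fold, adjusted p = 0.0362) and by 1.05 ± 0.14 from DN3 to DN4 (2.07-fold, adjusted p = 4.6e-04). Over both steps it was 2.92-fold lower, a log2 difference of -1.55 ± 0.14 (adjusted p = 5.68e-06).

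The call of the first step depended on the arrays included. It ended without DN2 replicate 2 (adjusted p = 0.0607), DN2 replicate 3 (0.0875), DN2 replicate 4 (0.0689), DN3 replicate 1 (0.0985), DN3 replicate 2 (0.0897) or DN3 replicate 4 (0.0672), though the difference stayed between -0.57 and -0.34 in all 24 alternatives run. In limma with the sort as a block, which pairs the stages of a sort, the adjusted p of this step was 0.00855. The second probe set of Il7r, 1448576_at, was dimmer, at 5.88 to 6.95 in DN2, 5.06 to 6.58 in DN3 and 5.20 to 5.92 in DN4. It was not called in either step (-0.50 ± 0.32, adjusted p = 0.41, and -0.43 ± 0.32, adjusted p = 0.411), and was called lower from DN2 to DN4 (-0.93 ± 0.32, adjusted p = 0.0448). Its ranges in neighbouring stages overlapped.

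The sequence upstream of Il7r is shown from RefSeq on GRCm38.p6, chr15:9529942-9530126, minus strand, up to the first base of the annotated gene. Capitals mark TTCAGGGAA, a match to the STAT motif TTCNNNGAA at 142 to 134 bases before the start site of the window.
Il7r: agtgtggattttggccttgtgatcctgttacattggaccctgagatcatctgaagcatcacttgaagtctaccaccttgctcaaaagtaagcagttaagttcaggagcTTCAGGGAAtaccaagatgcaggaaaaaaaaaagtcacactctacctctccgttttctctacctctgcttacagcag
No other of the motifs searched was found in its 250 bases, whereas the Il2ra window above held RUNX letters and no STAT letters.

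Il4ra encodes the chain that binds IL-4 and, with another partner, IL-13. Its brightest probe set, 1421034_a_at, lay at 9.39, 8.95, 9.03 and 8.89 in DN2 for sorts 1 to 4, at 7.95, 8.03, 7.96 and 7.80 in DN3, and at 6.71, 6.47, 6.26 and 5.63 in DN4. The stages were again separate on every array, and the DN4 arrays spread most, with sort 4 lowest. Il4ra fell by 1.13 ± 0.20 from DN2 to DN3 (2.18-fold, adjusted p = 0.00344) and by 1.67 ± 0.20 from DN3 to DN4 (3.19-fold, adjusted p = 2.99e-04). From DN2 to DN4 it was 6.96-fold lower, a log2 difference of -2.80 ± 0.20 (adjusted p = 1.19e-06). Of the 11166 genes, 90 (0.806%) fell further than Il4ra from DN2 to DN4, against 402 (3.6%) that fell further than Il7r.

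The other probe sets of Il4ra were dimmer. On 1423996_a_at the arrays ran from 6.28 to 6.71 in DN2, 5.59 to 6.16 in DN3 and 2.88 to 3.45 in DN4, where every array was below the filter level. It differed by -0.59 ± 0.17 from DN2 to DN3 (adjusted p = 0.0556) and was at least 2.36-fold lower in DN4 than in DN3 (adjusted p = 2.6e-06). "At least" here compares the brighter stage with the filter level. The third, 1447858_x_at, passed the filter on 5 of 12 arrays and was called only from DN2 to DN4, where all DN4 arrays were below the filter level (at least 1.10-fold lower, adjusted p = 0.0391). In both of the brighter probe sets DN4 was lowest, but the first step was called in 1 of them alone.

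The 250 bases upstream of Il4ra, from RefSeq on GRCm38.p6, chr7:125552021-125552270, plus strand, held none of the motifs searched and therefore carry no capitals.
Il4ra: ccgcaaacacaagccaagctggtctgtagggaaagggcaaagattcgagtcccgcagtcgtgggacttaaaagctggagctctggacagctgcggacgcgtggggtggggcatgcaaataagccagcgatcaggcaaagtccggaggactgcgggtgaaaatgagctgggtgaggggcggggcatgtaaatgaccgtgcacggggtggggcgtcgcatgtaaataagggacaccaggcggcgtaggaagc
The 3 upstream sequences thus had no motif of the search in common.

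Il21r encodes the private chain of the IL-21 receptor and was measured by a single probe set, 1450456_at. It lay at 7.67, 7.24, 7.57 and 7.03 in DN2 for sorts 1 to 4, at 8.13, 8.27, 8.35 and 7.75 in DN3, and at 6.77, 7.28, 7.29 and 6.74 in DN4. All DN3 arrays were above all DN2 and DN4 arrays, while DN2 and DN4 overlapped. Il21r rose by 0.75 ± 0.20 from DN2 to DN3 (1.68-fold, adjusted p = 0.0274, higher in 4 of 4 sorts) and fell by 1.10 ± 0.20 from DN3 to DN4 (2.15-fold, adjusted p = 0.00318, lower in 4 of 4 sorts). DN4 and DN2 differed by -0.35 ± 0.20 (adjusted p = 0.186), which is within the spread of the arrays. The call of the rise ended without DN2 replicate 2 (adjusted p = 0.0683), DN2 replicate 4 (0.0749), DN3 replicate 1 (0.0630), DN3 replicate 2 (0.0746) or DN3 replicate 3 (0.0772). In limma with the sort as a block the adjusted p of the rise was 0.00587.

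In the RefSeq annotation Il21r is the next gene to Il4ra on chromosome 7, with 0 genes between them, yet the pair moved in opposite directions from DN2 to DN3. The difference between their 2 changes was 1.88 on the log2 scale, higher for Il21r in 4 of 4 sorts (exact two-sided permutation that did not keep the sorts paired, p = 0.0286, adjusted 0.0572 over 12 tests). From DN3 to DN4 both fell, and their changes differed by 0.57 (exact permutation p = 0.114, adjusted 0.137). In the Il21r window, the reverse complement of TGTGGT lay at 33 to 28 bases before the start site of the window. TGTTTAC lay at 38 to 32 bases before that site, so that the matches overlap by their letters. Both matches lie inside the annotated gene, and the 73 bases of the window before the gene held no match. Il2ra and Il15ra are also close neighbours, on chromosome 2, with 1 gene and no protein-coding gene between them.

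Il15ra, the high-affinity chain for IL-15, was near the limit of detection. Its brighter probe set, 1448681_at, lay at 4.77, 4.65, 5.01 and 4.86 in DN2 for sorts 1 to 4, at 4.95, 5.51, 3.62 and 4.83 in DN3, and at 4.48, 4.0, 4.98 and 3.49 in DN4. It passed the filter level on 7 of 12 arrays, 3 in DN2, 3 in DN3 and 1 in DN4, and the stages overlapped. It was not called in any comparison: the differences were -0.09 ± 0.37 from DN2 to DN3 (adjusted p = 0.917), -0.49 ± 0.37 from DN3 to DN4 (0.393) and -0.59 ± 0.37 from DN2 to DN4 (0.245). The second probe set, 1422397_a_at, lay between 2.86 and 5.07 and was not called either.

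Il2rb, the signalling chain shared by the IL-2 and IL-15 receptors, and Il9r, the IL-9 receptor chain, were dim in all 3 stages. The Il2rb probe sets lay at 3.18 to 5.03 and 2.74 to 3.72 and exceeded the filter level on 2 and 0 of 12 arrays. The Il9r probe set lay at 2.72 to 3.85 and exceeded it on 0 of 12. In a fit without the filter the DN3 minus DN2, DN4 minus DN3 and DN4 minus DN2 differences were 0.01, -0.01 and -0.01 for Il2rb and -0.23, 0.28 and 0.05 for Il9r, none of them called. At these signals no change could be detected, which does not show that the transcripts are absent.

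**Figure D2:**
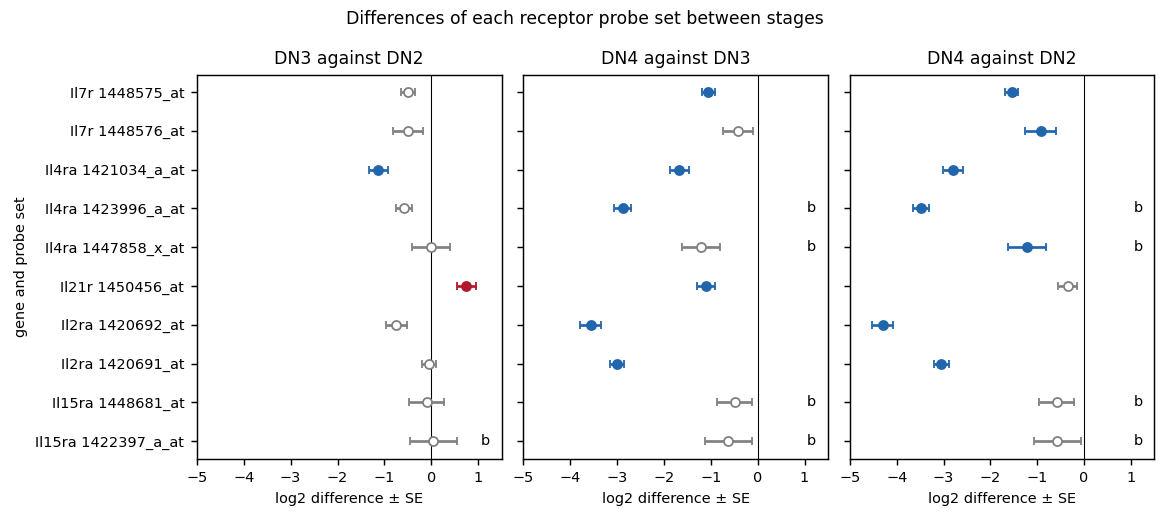
Log2 difference ± SE of each receptor probe set (rows) between stages, in a fit over every probe set that passed the filter; filled points are called (blue lower, red higher), open points are not, and b marks a lower stage whose mean is below the filter level. The fall to DN4 is seen on both Il2ra probe sets and on the brighter probe sets of Il7r and Il4ra, while at the first step the paired probe sets of Il2ra, at -0.74 and -0.04, stand apart.

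Adjusted over 20357 probe sets rather than over genes, the first step of Il7r on 1448575_at had an adjusted p of 0.0523 (0.0131 with the sort as a block) and that of Il2ra on 1420692_at 0.0625 (0.0151 with the block), so that 2 of the 10 probe sets were called in that step, Il4ra 1421034_a_at lower and Il21r higher. Of all probe sets 8.01% were called there (3.64% higher, 4.37% lower), 12.5% from DN3 to DN4 (5.19% higher, 7.29% lower) and 29.9% from DN2 to DN4 (16.1% higher, 13.8% lower).

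Counted by gene, 1 of the 5 receptors tested was called higher in DN3 than in DN2 and 3 lower, where 11.2% of all genes were called, 4.77% higher and 6.46% lower. From DN3 to DN4, 4 of 5 were called lower, where 16.3% of genes were called, 7.2% higher and 9.05% lower. From DN2 to DN4, 3 of 5 were called lower, where 34.6% of genes were called, 17.9% higher and 16.7% lower. The median difference of the 5 receptors was -0.49, -1.10 and -1.55 in these comparisons, and that of all genes 0.02, 0.05 and 0.06. Il2ra, whose protein set the DN3 and DN4 gates, is among the 4 and the 3. It also enters the medians, with -3.56 and -4.30 in the last 2 comparisons. From DN2 to DN4 the other receptors tested differed by -2.80 (Il4ra), -1.55 (Il7r), -0.59 (Il15ra) and -0.35 (Il21r). The receptor counts at the last 2 comparisons were 4 and 3 in each fit without 1 array, while the first ranged from 1 to 4.

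**Figure D3:**
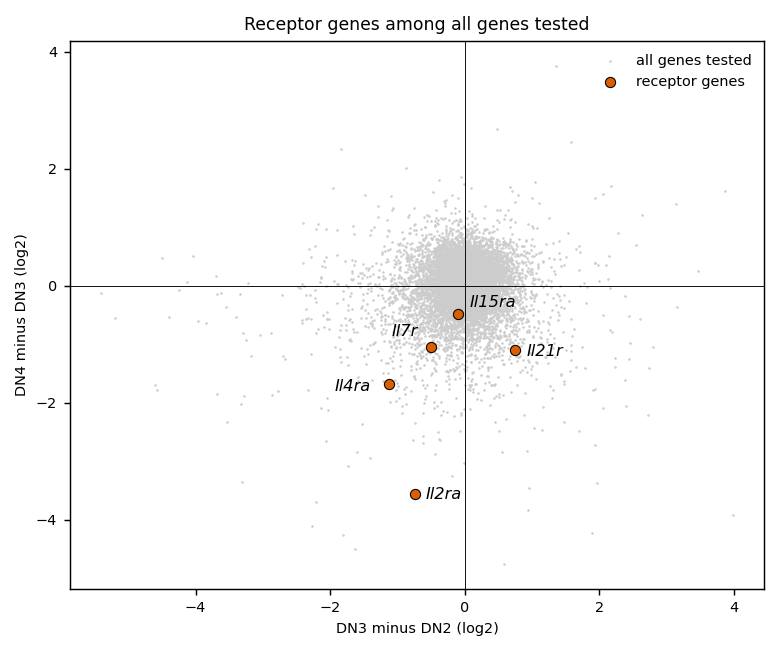
Difference from DN2 to DN3 (horizontal axis, log2) against that from DN3 to DN4 (vertical axis, log2) for the 11166 genes tested (grey), with the 5 receptor genes tested in orange. All 5 lie below 0 on the vertical axis, with Il21r alone to the right of 0 on the horizontal axis.

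Il7r, Il4ra and Il2ra were called lower at both steps, as were 184 genes in all (1.65%), and Il21r was among 106 genes (0.949%) called higher and then lower. The difference between the second and the first step was tested directly, and 4.91% of all genes were called. It was called for Il21r, at -1.85 ± 0.34 (adjusted p = 0.00906). For Il2ra it was -2.82, a value given as a description because the second step lay across the gate on CD25 protein. For Il4ra it was -0.55 ± 0.35 (adjusted p = 0.459), for Il7r -0.56 ± 0.24 (adjusted p = 0.224) and for Il15ra -0.40 ± 0.64 (adjusted p = 0.806), so a larger fall at the second step was not shown for these. The steps share the DN3 arrays, which enter them with opposite sign.

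Within DN4 the sorts did not rank alike. Il2ra on 1420692_at was lowest in sort 1 and highest in sort 4, and Il4ra on 1421034_a_at was highest in sort 1 and lowest in sort 4, with sorts 2 and 3 between in both. The second Il2ra probe set did not keep that order, with sort 1 at 5.50 and sort 4 at 5.34. For 4 sorts no correlation is given.

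The genes whose levels followed each receptor most closely are given as a description. Over the 12 arrays, which share stages and sorts, Pearson's r with Il7r was 0.987 for Akr1c13, 0.981 for Atp8b4 and 0.979 for Scin. With Il4ra it was 0.983 for Pts, 0.982 for Smim3 and 0.981 for Dpp4, a surface peptidase also known as CD26. For Il21r it was 0.953 for Nfatc1, a transcription factor of T cell activation, 0.932 for Dio2 and 0.930 for Wwox. For Il2ra it was 0.992 for Sema4a, 0.987 for Akr1c13 and 0.987 for Tsc22d1. Akr1c13 was thus among the closest genes of both Il7r and Il2ra.

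The ligands and further partner chains of these receptors were 10 genes, of which 2 passed the filter. Crlf2, the chain that joins Il7r in the TSLP receptor, lay at 9.66 to 9.97 in DN2, 8.97 to 9.58 in DN3 and 8.33 to 8.74 in DN4. Like Il7r it was lowest in DN4 on all arrays: it fell by 0.76 ± 0.16 from DN3 to DN4 (adjusted p = 0.00685) and by 1.26 ± 0.16 from DN2 to DN4 (adjusted p = 8.1e-05). Its first step of -0.50 ± 0.16 had an adjusted p of 0.0594, which became 0.0103 in the fit blocked by sort. Il15, the ligand of Il15ra, lay at 5.35 to 6.00 in DN2 and below the filter level on all DN3 and DN4 arrays, and fell at least 1.82-fold from DN2 to DN3 (adjusted p = 0.00122). The ligand Il7 lay at 3.30 to 4.73 and did not pass the filter, nor did Il2, Il4, Il9 or Il21.

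Of the kinases, STAT genes and adaptors that act behind these receptors, 3, 2 and 5 of 15 were called in the 3 comparisons, where 11.2%, 16.3% and 34.6% of all genes were called. Among these signal transducers, 1 was called higher and 2 lower from DN2 to DN3, 1 higher and 1 lower from DN3 to DN4 (2 and 5 when blocked by sort) and 1 higher and 4 lower from DN2 to DN4. Jak1 lay at 10.4 to 10.8 in DN2 and 9.92 to 10.2 in DN4 and fell by 0.56 ± 0.15 over both steps (adjusted p = 0.011). Over the 3 probe sets of Jak1 that difference ran from -1.09 to -0.11, with 2 called lower. Jak3 (6.97 to 7.59 in DN2, 7.03 to 7.36 in DN3, 6.91 to 7.22 in DN4), Stat5a and Stat5b, named for their role in IL-7 signalling, were not called in any comparison on their brightest probe sets, whose ranges overlapped in all 3 stages. Their differences from DN2 to DN4 were -0.29 ± 0.15, 0.04 ± 0.12 and -0.02 ± 0.17. The 2 probe sets of Stat5b did not agree, since the dimmer one was called higher in DN4 than in DN2, by 0.77.

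The adaptor Gab2 gave the greatest fall of that list. It lay at 8.28 to 9.30 in DN2, 6.13 to 6.76 in DN3 and 4.32 to 4.98 in DN4, and was called lower at each step, at least 16.1-fold over both (adjusted p = 9.64e-08). Its 3 probe sets did not agree: their DN4 minus DN2 differences ran from -4.11 to 0.45, and 2 of the 3 were called lower. The adaptor Irs2 rose by 0.92 ± 0.21 from DN2 to DN3 (adjusted p = 0.0139), while the adaptor Grb2 fell by 0.37 ± 0.09 (adjusted p = 0.0158). The 2 probe sets of Grb2 ran from -0.37 to -0.20 in that step, with 1 called lower. The kinase Akt1 rose by 0.37 ± 0.11 from DN3 to DN4 (adjusted p = 0.034). Its 3 probe sets that passed the filter ran from 0.37 to 0.73 in that step, with 1 called higher.

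**Figure D4:**
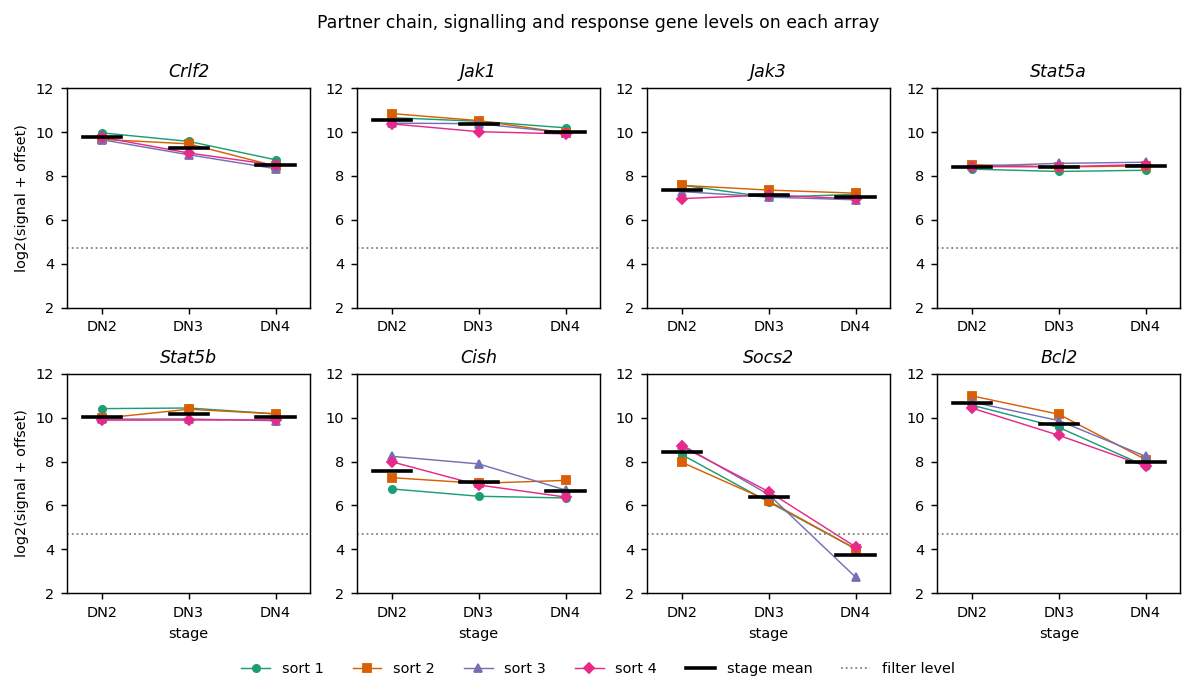
Log2(signal + offset) of a partner chain (Crlf2), shared kinases and STAT genes, feedback inhibitors (Cish, Socs2) and Bcl2 (vertical axis) in DN2, DN3 and DN4 (horizontal axis), with a coloured line for each of the 4 sorts, a black bar for the stage mean and a dotted line at the filter level. Crlf2, Socs2 and Bcl2 step down toward DN4, whereas Jak3, Stat5a and Stat5b keep overlapping ranges.

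Among 11 feedback inhibitors, which damp JAK and STAT signalling, 2 were called lower from DN2 to DN3 (4 with the sort as a block), 2 from DN3 to DN4 and 6 from DN2 to DN4. The shares of all genes called lower in these comparisons were 6.46%, 9.05% and 16.7%. Socs2, a target of STAT5 in many cells, lay at 7.97 to 8.77 in DN2, 6.16 to 6.63 in DN3 and 2.73 to 4.11 in DN4, and fell at least 13.2-fold from DN2 to DN4 (adjusted p = 3.3e-07). Of its 3 probe sets that passed the filter, 2 were called lower in that comparison. Sh2b3 fell by 0.78 ± 0.19 from DN2 to DN3 (adjusted p = 0.0213) and Socs3 by 1.91 ± 0.50 from DN3 to DN4 (adjusted p = 0.0231). Cish, another STAT5 target, lay at 6.75 to 8.24 in DN2 and 6.34 to 7.14 in DN4 and differed by -0.92 ± 0.36 (adjusted p = 0.0638, or 0.0182 in the fit blocked by sort).

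Of 12 response genes of these cytokines, 1 was called lower from DN2 to DN3 (1 higher and 3 lower with the block), 1 higher and 2 lower from DN3 to DN4 (3 and 2 with the block), and 2 higher and 3 lower from DN2 to DN4 (3 and 5 with the block). Without the block, 11.2%, 16.3% and 34.6% of all genes were called in these comparisons in either direction. Bcl2, the survival gene that IL-7 maintains in T cells, lay at 10.4 to 11 in DN2, 9.20 to 10.2 in DN3 and 7.79 to 8.24 in DN4. Its stages did not overlap, as for Il7r, and it fell by 0.99 ± 0.20 from DN2 to DN3 and fell by 1.72 ± 0.20 from DN3 to DN4 (adjusted p = 0.00775 and 2.61e-04). These values are from its brightest probe set, which gave the largest fall of the 5 at each step. From DN2 to DN3 the 5 probe sets ran from -0.99 to -0.01, with 2 called lower. From DN3 to DN4 they ran from -1.72 to -0.61, with 3 called lower. All 5 of its probe sets were lower in DN4 than in DN2, 4 of them by a called difference. Ccnd2, a cyclin of the G1 phase, fell by 1.44 ± 0.19 from DN3 to DN4 (adjusted p = 5.51e-04), called on 6 of its 7 probe sets, while Ccnd3, another such cyclin, was called higher on its brightest probe set (0.53 ± 0.16, adjusted p = 0.0466). The 3 probe sets of Ccnd3 did not agree: in that step they ran from -0.55 to 0.53, and the rise was not called when adjusted over all probe sets. Myc was called lower from DN2 to DN4 (-1.40 ± 0.41, adjusted p = 0.0204), lower in 3 of 4 sorts.

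Of 10 transcription factors, most of them known regulators of Il7r, 1 was called higher and 3 lower from DN2 to DN3 (3 and 3 with the block), 1 lower from DN3 to DN4 (1 higher and 4 lower with the block), and 1 higher and 4 lower from DN2 to DN4 (2 and 4 with the block). Without the block, 11.2%, 16.3% and 34.6% of all genes were called in these comparisons in either direction. Runx3 fell by 1.68 ± 0.23 from DN2 to DN3 (adjusted p = 5.75e-04), Spi1, which encodes PU.1, by 1.55 ± 0.21 (adjusted p = 6.25e-04) and Klf2 by 2.18 ± 0.42 (adjusted p = 0.00539). Foxo1, an activator of Il7r, rose by 0.48 ± 0.12 in the same step (adjusted p = 0.0214), in which Il7r itself fell. The 3 probe sets of Foxo1 that passed the filter ran from 0.39 to 0.51 in that step, with 1 called higher. Runx1 fell by 1.10 ± 0.16 from DN3 to DN4 (adjusted p = 0.00104), but its 6 probe sets ran from -1.36 to 0.69 in that step, with 3 called lower. Gfi1, a repressor of Il7r, was not called.

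Receptors for other cytokines were set beside the family. Of 30 such genes 16 were tested: 2 were called higher and 1 lower from DN2 to DN3, 3 lower from DN3 to DN4 and 3 lower from DN2 to DN4, with medians of -0.19, 0.08 and -0.14. In the same comparisons 11.2%, 16.3% and 34.6% of all genes were called in either direction, and 6.46%, 9.05% and 16.7% were called lower. Il20ra had the course of Il21r, rising by 0.71 ± 0.21 (adjusted p = 0.0446) and falling by 1.02 ± 0.21 (adjusted p = 0.00619). Il27ra rose by 0.79 ± 0.21 from DN2 to DN3 (adjusted p = 0.0311). Csf2ra fell by 0.75 ± 0.14 (adjusted p = 0.00451) and Ifngr1 by 0.69 ± 0.19 (adjusted p = 0.0267) from DN3 to DN4.

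The arrays carried the markers of DN thymocytes. Cd44 lay at 8.76 to 10.1 in DN2 and at or below 6.23 in DN3 and DN4, Ptcra, which encodes pre-TCR alpha, at 5.95 to 7.33 in DN2 and 8.43 to 9.72 in DN3, and Thy1 between 11.6 and 12.9 throughout. Trimmed mean signals per array as deposited ran from 130 to 234. In the 3 comparisons 1254, 1815 and 3868 genes were called (blocked by sort: 2329, 3384 and 5224). The split of higher to lower calls moved with the scaling: from DN3 to DN4 it was 804 to 1011 as reported, 253 to 1487 with arrays centred on their median and 39 to 2837 without normalization. From DN2 to DN3 it was 533 to 721, and 684 to 567 with arrays centred on their median; from DN2 to DN4 it was 2000 to 1868, and 287 to 2741 without normalization. Il7r, Il4ra, Il21r and Il2ra kept the direction of each called difference under all 3 scalings.

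The summed signals of myeloid and mast cell markers were lower on every DN3 and DN4 array than on any DN2 array. In bulk samples fewer cells of a type and less RNA per cell cannot be told apart. Of 8 myeloid markers tested, 3 were called lower from DN2 to DN3 and 4 from DN2 to DN4, among them Mpo, Lyz1 and Lyz2. Among all genes, 6.46% and 16.7% were called lower there. Csf1r did not fall, with means of 5.33 in DN2, 5.62 in DN3 and 5.76 in DN4, and Adgre1 had means of 4.93, 4.93 and 4.73. The summed signal of the 11 on the array was 1030 to 1899 in DN2, 386 to 495 in DN3 and 115 to 232 in DN4. The 7 mast cell markers summed to 2824 to 3802, 94.8 to 266 and 56.0 to 80.6. The sum in DN2 rests on Cpa3, while Fcer1a, Ms4a2 and Mcpt4 were below the filter level on every array. The dendritic cell markers did not take that course: they summed to 395 to 916, 243 to 430 and 295 to 1086. Of the 5 tested, Itgax was called lower from DN2 to DN3 and Cd74 higher from DN3 to DN4 (4 higher and 1 lower with the block), with median differences of -1.07 and 1.11 in these steps and 0.16 from DN2 to DN4. The part of these markers in the falls of Il7r and Il4ra was not tested.

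The remaining lists were mixed or dim. Beside their counts, 4.77% of all genes were called higher and 6.46% lower from DN2 to DN3. The shares were 7.2% and 9.05% from DN3 to DN4, and 17.9% and 16.7% from DN2 to DN4. Of 6 innate lymphoid markers tested, 1 was called higher and 2 lower from DN2 to DN3, Il17rb and Zbtb16 among the latter, with sums of 2019 to 2579, 1764 to 2552 and 1272 to 1853. Of 4 natural killer cell markers, against which the gate on NK1.1 was set, 2 were called higher and 2 lower from DN2 to DN3, with sums of 2405 to 4771, 6261 to 6881 and 7106 to 8735 that rest on Gzma. Of 8 markers of mature alpha-beta T cells, 1 was called higher and 3 lower from DN2 to DN3, and 2 higher from DN3 to DN4, Cd6 and Cd8a, with sums of 2022 to 2860, 1319 to 2169 and 1481 to 2507; Cd4 was below the filter level on every array. Of 4 B cell markers 1 was called higher from DN3 to DN4 and 1 lower from DN2 to DN4, and of 5 epithelial and stromal markers 1 was called higher and 1 lower in each step. By limma, 0 of 3 gamma-delta T cell markers were called from DN2 to DN3 (1 at an unadjusted p under 0.05) and 0 of 1 erythroid marker (0 at an unadjusted p under 0.05).

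As a measure of RNA quality, the log2 ratio of the 3' to the 5' Gapdh control probe set, which rises as RNA is shortened, was 1.10 to 1.82 in DN2, 0.876 to 1.26 in DN3 and 1.02 to 1.46 in DN4. The ranges overlapped, with DN2 highest on average, and the part of this ratio in the step from DN2 to DN3 of Il7r, Il2ra and Il21r was not tested.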

How the data were processed

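Transcript levels of 3 thymocyte stages were measured in 4 sorts on 12 Affymetrix Mouse Genome 430 2.0 arrays. RNA was purified on RNeasy columns and labelled after 2 rounds of cDNA synthesis, per the labels' protocols. The intensity deposited for each probe set is a signal on the linear scale; GCOS is the program that the submitters' processing notes name, and how it scaled the arrays is not stated there. The labels gave the stage and the sort of each sample.

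Of 45101 probe sets, 64 were controls, 932 had several gene symbols and 9211 had no listed gene, and these groups overlap in part. The 34945 that remained were used, with 34741 symbols updated through Entrez identifiers to RefSeq (GRCm38.p6) and 204 kept. Signals were quantile normalized, the table's 25th percentile (5.69) was added and log2 was taken. The brightest of a gene's probe sets on average stood for it (18193 genes), and 11166 genes exceeded the table's median (signal 20.6) on at least 4 arrays. The limma package (3.58.1, R 4.3.3) fitted a mean for each stage, with lmFit, contrasts and eBayes, two-sided tests, Benjamini-Hochberg adjustment and a threshold of 0.05. Figures used matplotlib 3.10.9 and pandas 2.3.3 in Python 3.11.15. The number of arrays limits the precision.

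Per the labels, equal sample numbers mark 1 source of cells. Deviations from stage means correlated at 0.250 to 0.343 within a sort across stages and at most 0.107 between sorts, and 12 of 12 arrays correlated best with their own sort; 0 pairs of arrays were identical. Alternatives were a block for the sort, other scalings, offsets, filters and choices of probe set, the 8 arrays compared alone, sorts 1 and 2 or 3 and 4 alone, and leaving out each array.

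All receptor genes are described. From each list of related genes at most 3 called members per comparison with the smallest adjusted p were to be named, with up to 3 bright members of marker lists; Jak1, Jak3, Stat5a, Stat5b, Cish, Foxo1, Gfi1, Myc and the dim ligands and markers were named for their role with their values seen. The members and lists were chosen with earlier results of these data known. The test of the difference between steps, the tests between probe sets and the motif search were added with the data in view.

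The fit was tested on simulated data of 11166 genes: in DN3 against DN2 it found 28.4% of genes given a log2 change of 0.5, 61.2% of those given 1 and 90.9% of those given 2, and called 9 of 10966 genes given none. Promoter windows were found in the RefSeq table for 7 of the 8 receptor genes.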

Additional observations from a re-analysis of the deposited data

Results flagged for a closer look

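In 2 of the 39 groups of 4 arrays examined (13 probe sets in 3 stages), 1 array stood far above the other 3; chance gives such a gap in about 1 of 20 groups. Il2rb on 1417546_at was at 5.03 on DN4 replicate 3, against 3.31 to 3.60 on the other DN4 arrays. Il9r on 1421570_at was at 3.84 on DN2 replicate 3, against 2.76 to 2.95 on the other DN2 arrays. Both genes lay below the filter level on average in every stage, and neither was called in a comparison.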

How the results depend on the processing

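All called differences of the receptors kept their direction in all alternatives run, and those from DN2 to DN4 also kept their call. From DN3 to DN4 the call of Il21r ended in sorts 1 and 2 alone (adjusted p = 0.0754) and sorts 3 and 4 alone (0.141), and that of Il7r in sorts 1 and 2 alone (0.0506), each with fewer arrays; 2 receptor genes were then called in sorts 1 and 2. From DN2 to DN3 the calls ended in 18 of 24 alternatives for Il2ra, 14 for Il7r, 9 for Il21r and 2 for Il4ra (sorts 1 and 2 alone, 0.0556; sorts 3 and 4 alone, 0.0775). The receptor count of 4 in that step became 2 with arrays centred on their median, with the mean of all probe sets or with every probe set by itself, 1 without normalization or without a filter, and 0 in sorts 1 and 2 or sorts 3 and 4 alone (limma; 4 and 3 at an unadjusted p under 0.05). It ranged from 1 to 4 over the fits without 1 array.

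Il15ra, which was never called, turned positive from DN2 to DN3 in sorts 1 and 2 alone (0.52), ranging from -0.35 to 0.28 without 1 array (positive without DN3 replicate 3), and from DN3 to DN4 in sorts 3 and 4 alone (0.0087). The cause was not tested. With the sort as a block, pairing samples of one source, 2329 genes were called from DN2 to DN3 and 3384 from DN3 to DN4; no receptor gene's call changed. Over all genes, counts moved without normalization to 604 (DN2 to DN3) and 2876 (DN3 to DN4), and without a filter to 1129 (DN3 to DN4). They moved to 6089 (DN2 to DN4) with every probe set. With sorts 1 and 2 alone they were 252, 221 and 1869 in the 3 comparisons, with sorts 3 and 4 alone 434, 236 and 2244. Without 1 array the DN3 to DN4 count ran from 1124 (without DN3 replicate 2) to 1915. The median of all genes shifted from 0.05 to -0.41 from DN3 to DN4 and from 0.06 to -0.29 from DN2 to DN4 without normalization (0.02 to 0.13 from DN2 to DN3), and from 0.05 to -0.09 from DN3 to DN4 with centred medians. Signals near background limit Il15ra, Il2rb and Il9r.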
